A study of Mus musculus with 2 samples.

Results

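In neurons of the dorsal root ganglion (DRG), the sensory ganglion beside the spinal cord, the genes for 35 receptors of serotonin, histamine, noradrenaline and adrenaline, dopamine and acetylcholine were compared between Dock8-/- and Dock8+/- mice. The genes were chosen by name, as 14 serotonin, 4 histamine, 8 adrenergic, 4 dopamine and 5 muscarinic receptor genes out of 36924 gene names on the array. All 35 had at least 1 probe, 55 probes in all, and each gene is represented by its brightest probe free of GA and GAA repeats. Hrh1, the histamine receptor best known for itch and vascular responses, was 2.84-fold lower in Dock8-/-. Htr1f, an inhibitory serotonin receptor, stood 2.04-fold higher, though its unscaled intensities were nearly equal, at 43.8 in Dock8-/- and 44.8 in Dock8+/-. Both folds follow scaling of each array to its 75th percentile, with 1 array a genotype. Both fell short of 2-fold under some other ways of processing. The other 13 receptors read on both arrays differed by less than 2-fold. The share past 2-fold was 13.3% of the measured receptors, against 15.8% of all measured genes. Another 9 receptors (25.7%) could be read in Dock8+/- alone, against 6.9% of all gene names. In neither genotype could 11 (31.4%) be read, against 41.3% of all gene names.

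The study profiled DRG neurons by microarray, with 1 array for each genotype and no replicates. The first group was Dock8-/- and carried the AND transgene, which encodes a T cell receptor, and its sample is labelled as having a high IL-31 level. The second group was Dock8+/- with the same transgene, and its sample is labelled as having a low IL-31 level. Both groups were C57BL/6, and the control was therefore a heterozygote with the transgene, not a wild type animal. Dock8 encodes a guanine nucleotide exchange factor of blood cells, and IL-31 is a cytokine that evokes itch. The labels do not state the age, the sex, the number of animals behind a sample or how the neurons were separated from other cells. With 1 array a genotype, no difference below has a replicate check and no test was possible, so a fold of 2 serves as a description of size and not as a call.

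Most of these receptors are G protein-coupled receptors. Receptors coupled to Gq/11 activate phospholipase C and release calcium, those coupled to Gs raise cyclic AMP, and those coupled to Gi/o lower cyclic AMP and open potassium channels or close calcium channels. Htr3a and Htr3b instead encode subunits of a cation channel that serotonin opens. In sensory neurons, serotonin and histamine released from platelets, mast cells and skin cells can excite the endings that signal itch and pain, whereas Gi/o-coupled receptors for serotonin and noradrenaline restrain transmitter release from them.

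The unit throughout is the processed intensity of a spot, on a linear scale in arbitrary units. The 75th percentile of intensity over non-control probes was 145.6 in Dock8-/- and 303.8 in Dock8+/-, and 50.7% of probes in Dock8-/- and 56.9% in Dock8+/- were well above background. Differences are log2, Dock8-/- minus Dock8+/-, after each array's 75th percentile was set to 0, and their median over the 18577 genes measured on both arrays was 0.02. This scaling matters for every direction given here, because 92.5% of all measured genes had a lower unscaled intensity in Dock8-/-. Each difference carries a standard error from the scanner software's own spot error, which covers reading a spot and not the variation between animals. Of the 13 sensory neuron markers listed, 13 were measured, with a median difference of 0.12, a summed intensity of 196819.1 in Dock8-/- and 393988.4 in Dock8+/-, and Snap25 at 0.60. Markers of other cells were present too, and in a bulk sample fewer cells of a type and less RNA per cell cannot be told apart.

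The probe sequences below show what the results on the receptors at least 2-fold apart rest on. They are the first 30 of the 60 bases of each probe, 5′ to 3′ as in the scanner files, with mm9 positions from those files. No annotation of that build was used, so the exon or untranslated region of a probe is not stated. Htr1f has 1 probe, at chr16:64924583-64924642 on the minus strand. Hrh1 has a probe that carries the reported value, at chr6:114432416-114432475 on the plus strand, and another at chr6:114430763-114430822, upstream of it on the same strand, that was dark on both arrays. The pair is shown because the Hrh1 difference stands on the first of them alone.
Htr1f: ggacacctttcacaaatcaagaccatttga
Hrh1, bright probe: ctgtccaaacgagatatttttgcttaccta
Hrh1, dark probe: tgagtacttgccggcggatcagtgagacat
The G and C content of the probes of the 15 measured receptors ran from 35% to 55%.

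**Figure D1:**
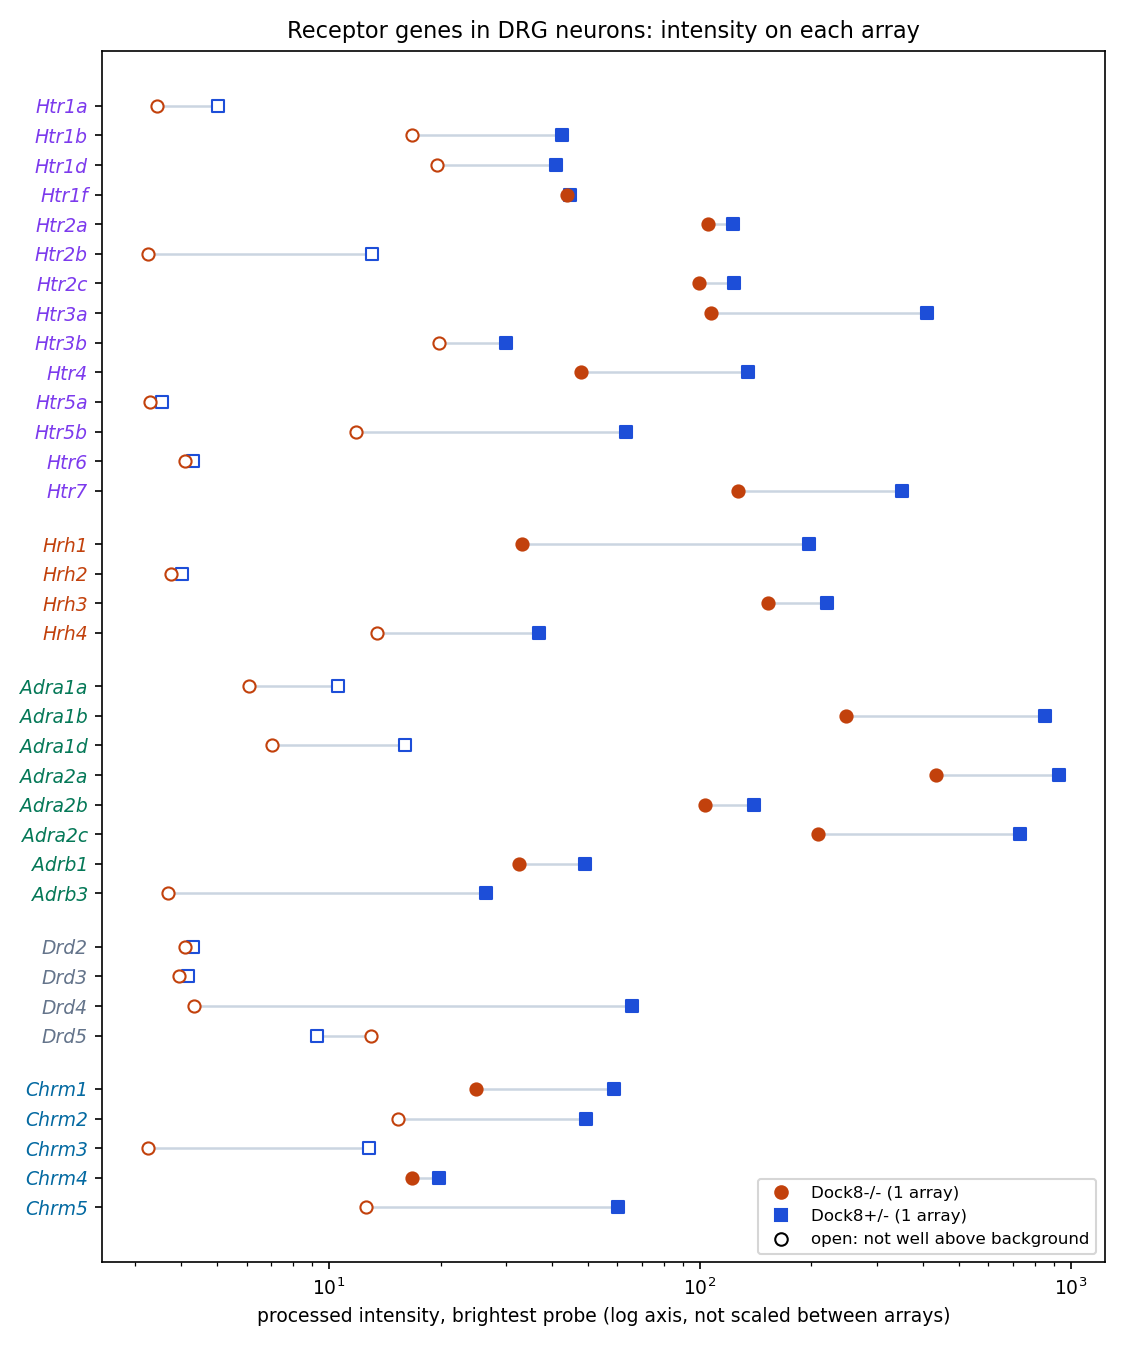
Processed intensity (log axis, arbitrary units) of the brightest probe of each of the 35 receptor genes, by receptor class, on the Dock8-/- array and the Dock8+/- array, with marks for whether the probe was well above background. All 15 receptors read on both arrays have a lower unscaled intensity in Dock8-/-, and the 11 read on neither lie at or below 13.0 in Dock8-/- and 16 in Dock8+/-.

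Detection itself differed between the arrays. No receptor (0 of 35) was read on the Dock8-/- array only, where 1.38% of all gene names were, and 9 of 35, or 25.7%, were read on the Dock8+/- array only, where 6.9% of all gene names were. The lowest intensity that counted as well above background was 16.1 in Dock8-/- and 17.4 in Dock8+/-, so after scaling the Dock8-/- array could read down only to a level 0.95 log2 units above that of the Dock8+/- array. The 9 receptors were dim on the Dock8+/- array as well, with intensities of 26.6 to 65.7. Of the measured receptors, 1 of 15 was at least 2-fold higher in Dock8-/-, against 8.74% of all measured genes, and 1 of 15 was at least 2-fold lower, against 7.08%. Together these 2 make up 13.3% of the measured receptors, close to the 15.8% of all measured genes that lay 2-fold or more apart. The median difference of the 15 was -0.04, with 7 above 0 and 8 below.

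**Figure D2:**
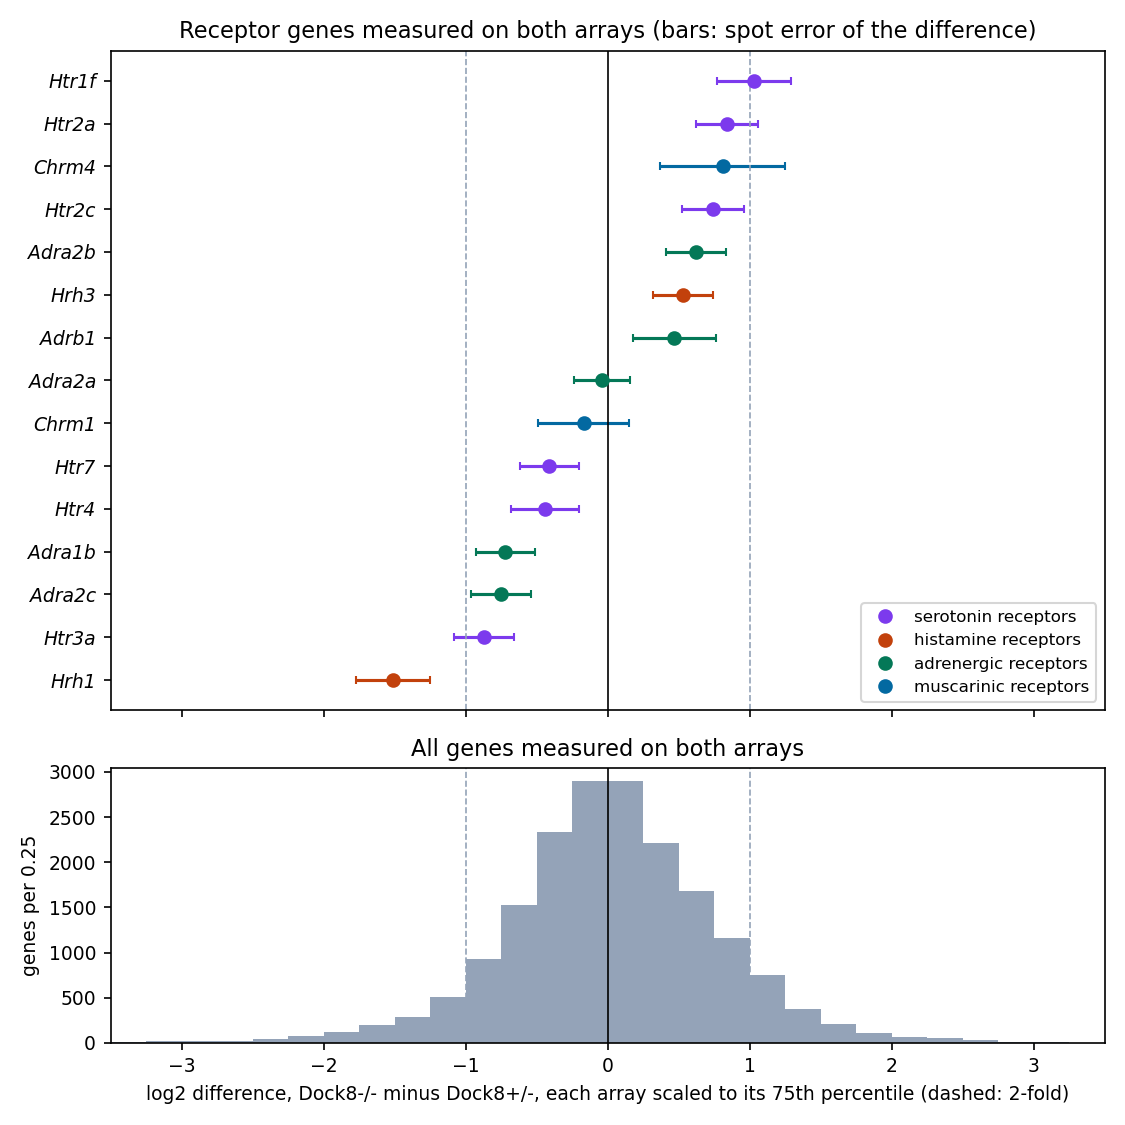
Scaled log2 difference, Dock8-/- minus Dock8+/-, of the 15 receptor genes measured on both arrays, by class, with bars for the standard error from spot error and dashed lines at 2-fold. Htr1f at 1.03 and Hrh1 at -1.51 are the receptors beyond the dashed lines, and the Htr1f bar crosses its line.

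Among the serotonin receptors, 6 of 14 were measured, 3 higher and 3 lower in Dock8-/- by their brightest probes, with a median of 0.17. The lower ones include Htr4, whose probes disagree in direction. The inhibitory Gi/o-coupled Htr1f, a target of migraine drugs, had an intensity of 43.8 ± 5.54 in Dock8-/- and 44.8 ± 5.77 in Dock8+/- (spot error). These unscaled values lie within each other's error, and the scaled difference was 1.03 ± 0.26. Htr2a, a Gq/11-coupled receptor that sensitises nociceptors, gave 105.4 ± 11.3 in Dock8-/- and 123.2 ± 13.1 in Dock8+/-, a difference of 0.84 ± 0.22. Its relative Htr2c, also coupled to Gq/11, gave 99.3 in Dock8-/- and 124.0 in Dock8+/-, a difference of 0.74 ± 0.22. Both members of this pair were thus higher only after scaling, by 1.79-fold for Htr2a and 1.67-fold for Htr2c.

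The channel subunit Htr3a and the Gs-coupled Htr7 were lower in Dock8-/-. Htr3a had 107.4 ± 11.4 in Dock8-/- and 409.8 ± 41.2 in Dock8+/-, a difference of -0.87 ± 0.21 and 1.83-fold lower. A second Htr3a probe read 15.8, not well above background, in Dock8-/- and 84.2 in Dock8+/-, so both probes were dimmer in Dock8-/-. Htr7, which raises cyclic AMP and has been tied to serotonin-evoked itch in mice, gave 126.8 ± 13.3 in Dock8-/- and 350.5 ± 35.3 in Dock8+/-, a difference of -0.41 ± 0.21. Its second probe gave 44.5 in Dock8-/- and 126.3 in Dock8+/-, with nearly the same difference of -0.44. Htr7 was the receptor with 2 measured probes that ran together, and both sit within 1.32-fold to 1.36-fold lower. The pairs for Htr3a and Htr7 are printed because they are the repeat readings of 1 gene, a choice made after the values were seen. For Htr3a the brighter probe is at chr9:48707773-48707832 and the dimmer at chr9:48709008-48709067, and for Htr7 the brighter is at chr19:36033339-36033398 and the dimmer at chr19:36034764-36034823, all on the minus strand.
Htr3a, brighter probe: ctggtcactctctggtccatttggcattat
Htr3a, dimmer probe: caagatcacactccttctgggatactcagt
Htr7, brighter probe: gtgtacaaattcctgagctgcagattcgct
Htr7, dimmer probe: aagtaatgcagaacagggggaaacaacgaa

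The probes of Htr4, another Gs-coupled receptor, did not run together. The brighter gave 47.7 ± 6.2 in Dock8-/- and 134.9 ± 14.1 in Dock8+/-, a difference of -0.44 ± 0.24, and the other gave 44.6 in Dock8-/- and 50.4 in Dock8+/-, a difference of 0.89. No direction can be given for this receptor from both probes. Disagreement of this size was common on these arrays: of 6192 genes with 2 or more measured probes, 29.9% had probes at least 1 log2 unit apart.

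Htr1b and Htr1d, the Gi/o-coupled targets of the triptans, were read on the Dock8+/- array only. Htr1b had 16.7 in Dock8-/- and 42.5 in Dock8+/-, and Htr1d had 19.6 in Dock8-/- and 41 in Dock8+/-. For a receptor read on 1 array, a nominal lower bound sets the bright value against 16.1. That was the lowest Dock8-/- intensity counted as well above background, and the probe's own value was used where higher. Detection varied by probe: in Dock8-/-, Chrm4 at 16.7 was read and Htr3b at 19.8 was not. A higher limit would give smaller bounds, so they are not strict minimum differences. For Htr1b and Htr1d the probe's own value was higher, so the figures of 1.22-fold lower for Htr1b and 1.01-fold lower for Htr1d are the observed ratios. Their log2 differences of -0.29 ± 0.40 and -0.01 ± 0.38 were within spot error of 0, and neither receptor has a direction. Htr5b, a receptor gene that is intact in mice and a pseudogene in humans, had 11.8 in Dock8-/- and 63.1 in Dock8+/-. Its bound was 1.88-fold lower, and the probe's own difference was -1.36 ± 0.56. Htr3b, which forms a channel only with Htr3a, had 19.8 in Dock8-/- and 30.1 in Dock8+/-, and no bound above 1 could be given. Htr1a, Htr2b, Htr5a and Htr6 were on neither array.

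Of the histamine receptors, Hrh1 and Hrh3 were measured. Hrh1, coupled to Gq/11, had 33.2 ± 4.88 in Dock8-/- and 197.1 ± 20.1 in Dock8+/-, a difference of -1.51 ± 0.26. Its unscaled ratio of 0.169 was the lowest of the 15 measured receptors. The dark Hrh1 probe printed above gave 4.35 in Dock8-/- and 4.56 in Dock8+/-, both at the floor, and so neither repeats nor contradicts the bright one. Hrh3, a Gi/o-coupled receptor that restrains transmitter release, ran the other way at 152.7 ± 15.7 in Dock8-/- and 220.1 ± 22.3 in Dock8+/-, a scaled difference of 0.53 ± 0.21. Hrh4, a Gi/o-coupled receptor of immune cells that is also linked to itch, had 13.5 in Dock8-/- and 36.8 in Dock8+/-. Its bound was 1.09-fold lower, though the probe's own difference of -0.38 ± 0.45 was within spot error of 0. Hrh2, the Gs-coupled receptor of gastric acid secretion, was on neither array.

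Markers of cells other than neurons moved with Hrh1. Of the fibroblast markers, 7 of 8 were measured with a median of -2.30, and 6 of those were at least 2-fold lower, led by Pi16 at -3.81, with a summed intensity of 38056.9 in Dock8-/- and 280270.7 in Dock8+/-. Macrophage markers were measured for 7 of 7 with a median of -1.79, 6 at least 2-fold lower and Lyz2 at -2.87, and their summed intensity was 4554.7 in Dock8-/- and 39351.5 in Dock8+/-. Endothelial markers, which belong to a known site of Hrh1, were measured for 6 of 7 with a median of -0.31, and summed to 2110.7 in Dock8-/- and 5143.2 in Dock8+/-. The smooth muscle and pericyte markers were measured for 9 of 10, with a median of -0.43, Cnn1 at -2.77 and Abcc9 at 1.78, and summed to 5807.3 in Dock8-/- and 17733.9 in Dock8+/-. Mast cells are the main histamine store of tissue, and 4 of 7 of their markers were read in Dock8+/- alone. Among these, Mcpt4 had 6.22 in Dock8-/- and 938.5 in Dock8+/-, a bound of 27.9-fold lower. Fcer1a was on neither array, and the 2 measured, Kit and Tpsb2, had a median of -0.16. Skeletal muscle markers were 4 of 7 measured with a median of -3.95. The part of these cells in the receptor values was not tested.

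Adrenergic receptors were the class read most often, with 5 of 8 measured, 2 higher and 3 lower, and a median of -0.04. Adra2a, the Gi/o-coupled receptor through which clonidine acts, gave 433.1 ± 43.5 in Dock8-/- and 931.6 ± 93.2 in Dock8+/-, and its difference of -0.04 ± 0.20 was within spot error of 0. Adra2c, another Gi/o-coupled receptor, gave 208.4 ± 21.2 in Dock8-/- and 731.0 ± 73.2 in Dock8+/-, a difference of -0.75 ± 0.21 and 1.68-fold lower. Adra2b, the remaining member of this subfamily, gave 103.5 ± 11 in Dock8-/- and 140.2 ± 14.6 in Dock8+/-, a difference of 0.62 ± 0.21 and 1.54-fold higher. The 3 alpha-2 receptors thus spread over both directions.

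Adra1b, a Gq/11-coupled receptor of vessels and other tissues, gave 247.5 ± 25 in Dock8-/- and 852.5 ± 85.3 in Dock8+/-, a difference of -0.72 ± 0.21 and 1.65-fold lower. Adrb1, the Gs-coupled receptor that drives the heart, was dim at 32.6 ± 5.05 in Dock8-/- and 49.1 ± 6.4 in Dock8+/-, a difference of 0.47 ± 0.29. Adrb3, the receptor that starts fat breakdown in adipocytes, had 3.69 in Dock8-/- and 26.6 in Dock8+/-, which gave no bound above 1. Beside it, the adipocyte markers Adipoq, Plin1 and Ucp1 could be read in Dock8+/- alone, and the 3 of 6 that were measured ranged from -2.96 for Cfd to 4.24 for Plin4. Their part in the Adrb3 reading was not tested. Adra1a and Adra1d were on neither array. Of the sympathetic neuron markers, whose cells release noradrenaline, Dbh, Phox2a and Hand2 were on neither array, and Th, which some sensory neurons also make, had 1219.1 in Dock8-/- and 4402.1 in Dock8+/-, a difference of -0.79.

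No dopamine receptor was measured on both arrays (0 of 4). Drd4, a Gi/o-coupled receptor, had 4.32 in Dock8-/- and 65.7 in Dock8+/-, a bound of 1.95-fold lower. That bound was the highest of the 9 receptors read on the Dock8+/- array only. Of the 9, 7 had a bound above 1-fold, including Htr1b, Htr1d and Hrh4 with differences within spot error. None (0 of 9) reached 2-fold, against 17.4% of all 2546 genes read on that array only. That 0 was fixed by how dim the 9 were. Drd4, at 65.7 the brightest of them in Dock8+/-, was set against the lowest limit of 16.1 and still gave 1.95-fold. The contrast with 17.4% is therefore not a result about these receptors. The Drd4 reading comes from 1 of its 3 probes, and the other 2 were at the floor on both arrays, at 4.02 and 3.8 in Dock8-/- and 4.23 and 3.99 in Dock8+/-. The Gi/o-coupled Drd2 and Drd3 and the Gs-coupled Drd5 were on neither array.

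The bright Drd4 probe also holds the longest run of bases shared by probes of different receptors in the list, 15 bases in common with a probe of Htr1b. It is shown, with the shared run in capitals, because these receptors are related in sequence and a probe could read more than 1 of them. This pair was picked after the values were seen. The Drd4 probe is at chr7:148480683-148480742 on the plus strand and the Htr1b probe at chr9:81525015-81525074 on the minus strand.
Drd4: ctcaacccCATCATCTACACCATcttcaac
Htr1b: CATCATCTACACCATgtccaatgaggactt
The Htr1b probe with this run was at the floor on both arrays, at 3.85 in Dock8-/- and 4.32 in Dock8+/-, and so says nothing for or against a shared reading. The brighter Htr1b probe, described above, was like Drd4 in being read in Dock8+/- alone. Whether the Drd4 probe reads other receptors was not tested.

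Muscarinic receptors were measured for 2 of 5. Chrm1, a Gq/11-coupled receptor, gave 24.9 ± 4.56 in Dock8-/- and 58.6 ± 7.12 in Dock8+/-, a difference of -0.17 ± 0.32, within its spot error. Its brightest probe spans 12921 bases of the genome at chr19:8739471-8752391 and therefore crosses an intron. Chrm4, coupled to Gi/o, was close to the detection limit, with 16.7 ± 3.71 in Dock8-/- and 19.8 ± 4.06 in Dock8+/-, and its difference of 0.81 ± 0.44 had the widest spot error of the 15. Chrm2, the Gi/o-coupled receptor that slows the heart and inhibits nociceptors, had 15.4 in Dock8-/- and 49.3 in Dock8+/-. Its bound was 1.46-fold lower, close to the probe's own difference of -0.62 ± 0.45 (1.53-fold). Chrm5, coupled to Gq/11, had 12.6 in Dock8-/- and 60.2 in Dock8+/-, with a bound of 1.79-fold lower and an own difference of -1.20 ± 0.51. Chrm3, the Gq/11-coupled receptor of glands and smooth muscle, was on neither array.

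Grouped by the signal they pass on, the measured Gi/o-coupled receptors had a median of 0.58 (6 of 16 measured, 4 higher and 2 lower). The Gq/11-coupled receptors had a median of -0.17 (5 of 10 measured), the Gs-coupled receptors -0.41 (3 of 7, from -0.44 to 0.47), and the channel subunit Htr3a -0.87 (1 of 2). The Gs median takes Htr4 at its brighter probe, and with the mean of each gene's probes it is 0.22, so no direction holds for that group. These groups overlapped: Gi/o-coupled members ran from -0.75 to 1.03 and Gq/11-coupled members from -1.51 to 0.84. The difference also varied with signal. With all measured genes ranked by mean signal and split into 4 bins of equal size, the median difference was 0.33 in the dimmest bin and -0.02, -0.04 and -0.04 in the next 3. Htr1f, Htr4, Hrh1, Adrb1, Chrm1 and Chrm4 lay in that dimmest bin, 3 of these 6 higher in Dock8-/-, and 0 of the 3 receptors in the third bin (Adra1b, Adra2a and Adra2c) were higher. Hrh1 thus ran against the median of its bin, and Htr1f ran with it.

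**Figure D3:**
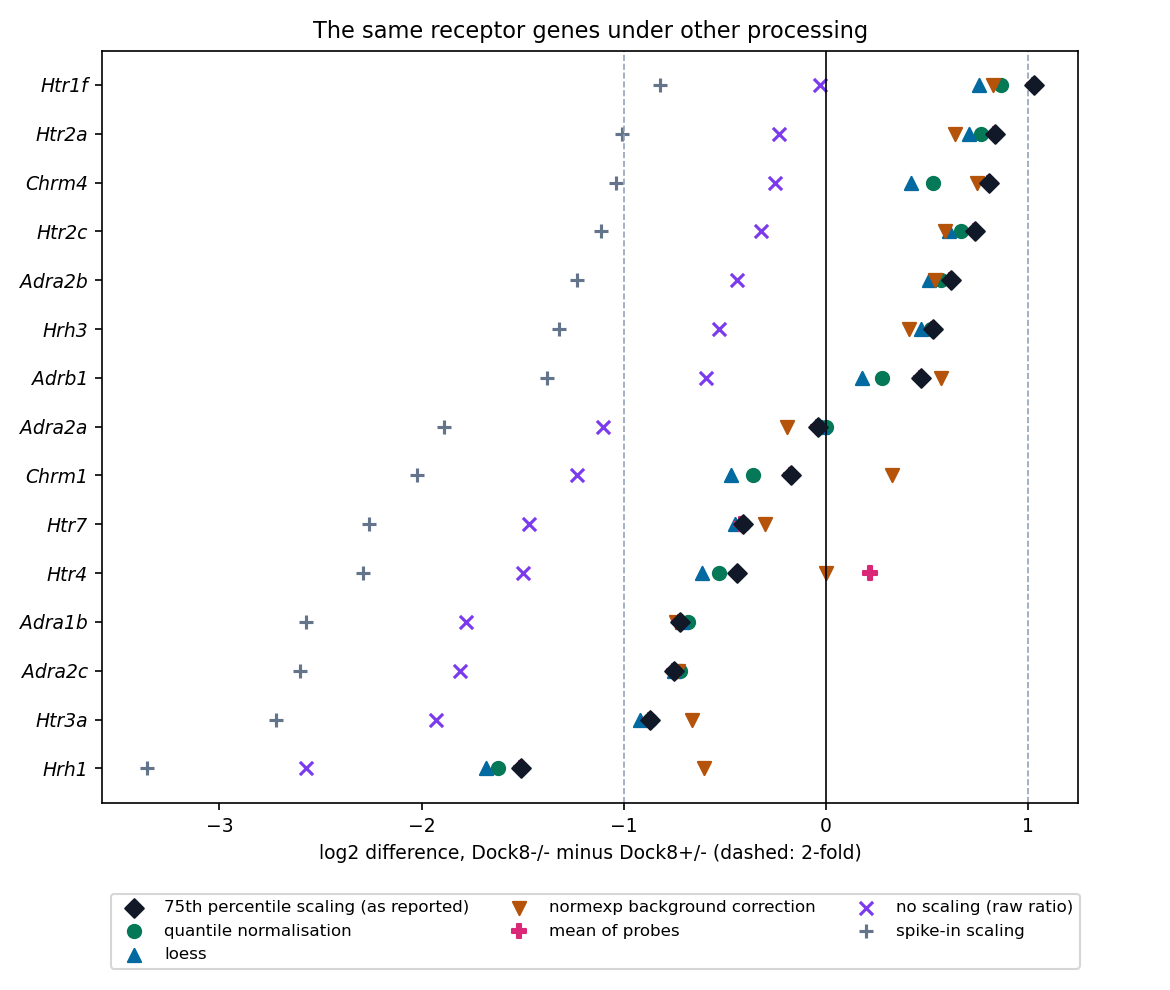
Log2 difference, Dock8-/- minus Dock8+/-, of each of the 15 measured receptor genes under the scaling used here and under the other ways of scaling and correcting the arrays. The 7 receptors above 0 under the 75th percentile fall below 0 with no scaling and with spike-in scaling, whereas Hrh1 stays below 0 in each.

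Which receptors count as higher rests on the scaling. Without scaling, all 15 measured receptors were lower in Dock8-/-, with ratios from 0.169 to 0.978, and the median of all measured genes was -1.04. With the 8 spike-in probes set equal, that median was -1.83. Htr1f, Htr2a, Htr2c, Hrh3, Adra2b, Adrb1 and Chrm4 turned to lower under both. Relative to the shift of all genes their order did not change. Htr1f also fell short of 2-fold under quantile normalisation (0.87), loess (0.76), normexp background correction (0.83) and in the authors' deposited value table (0.88). Hrh1 was lower in each setting tried, from -0.60 with normexp, short of 2-fold, to -3.36 with spike-in scaling.

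Genes of the proteins that carry the receptors' signals were nearly all measured. Of the Gq/11 and phospholipase C genes 13 of 13 were measured, with a median of 0.32, and Prkce, a protein kinase C of nociceptors, had 245.8 in Dock8-/- and 235.3 in Dock8+/-, a difference of 1.12. The phospholipases Plcb1 and Plcb4 followed at 0.74 and 0.71. In the Gs and adenylyl cyclase list 13 of 14 were measured, with a median of 0.27. There Adcy7, an adenylyl cyclase prominent in blood cells, had 82 in Dock8-/- and 441.6 in Dock8+/-, a difference of -1.37, while the cyclases Adcy6 and Adcy8 stood at 0.95 and 0.92. In the Gi/o and potassium channel list 7 of 9 were measured, with a median of 0.40. Gnao1, the alpha subunit of Go, had 8008.2 in Dock8-/- and 7648.7 in Dock8+/-, a difference of 1.13, but its other 3 probes gave -0.02, -0.11 and 1.69. Gnaz, a Gi-type alpha subunit, stood at -0.96 and Gnai3 at 0.73.

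Receptor kinases and arrestins, which switch these receptors off, were measured for 7 of 7 with a median of -0.03. None was 2-fold apart (0 of 7), against 15.8% of all measured genes, and a list of 7 is too short to tell from that share. The list ran from Grk5 at -0.46 to Grk3 at 0.88. Grk4 stood at 0.82, with other probes at 0.43 and 0.33.

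The genes that make, move and break down the ligands had the widest range of these 5 lists. Of 21 such genes 14 were measured, with a median of -0.14, of which 3 lay at least 2-fold above 0 and 1 as far below. The share 2-fold apart was 28.6%, against 15.8% of all measured genes, and in a list of 14 this contrast was not tested. The count below 0 also rests on the choice of probe. Ache, at 80 in Dock8-/- and 333.6 in Dock8+/-, lay at the 2-fold limit and was not counted. Its other probe, at 75.9 in Dock8-/- and 347.6 in Dock8+/-, gave -1.13. Ddc, the decarboxylase that completes dopamine and serotonin synthesis, had 1043.4 in Dock8-/- and 187.9 in Dock8+/-, 11.59-fold higher after scaling. A second Ddc probe read 39.5 in Dock8-/- and 4.66, not well above background, in Dock8+/-. Maoa, which breaks down serotonin and noradrenaline, had 477.4 in Dock8-/- and 483.2 in Dock8+/-, 2.06-fold higher after scaling. Chat, the enzyme that makes acetylcholine, had 213.5 in Dock8-/- and 185.1 in Dock8+/-, a difference of 1.27, and Slc18a3, the carrier that loads acetylcholine into vesicles, had 207.2 in Dock8-/- and 1126.9 in Dock8+/-, a difference of -1.38. The synthetic enzymes Tph1, Tph2 and Dbh and the transporters Slc6a3 and Slc6a4 were on neither array.

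**Figure D4:**
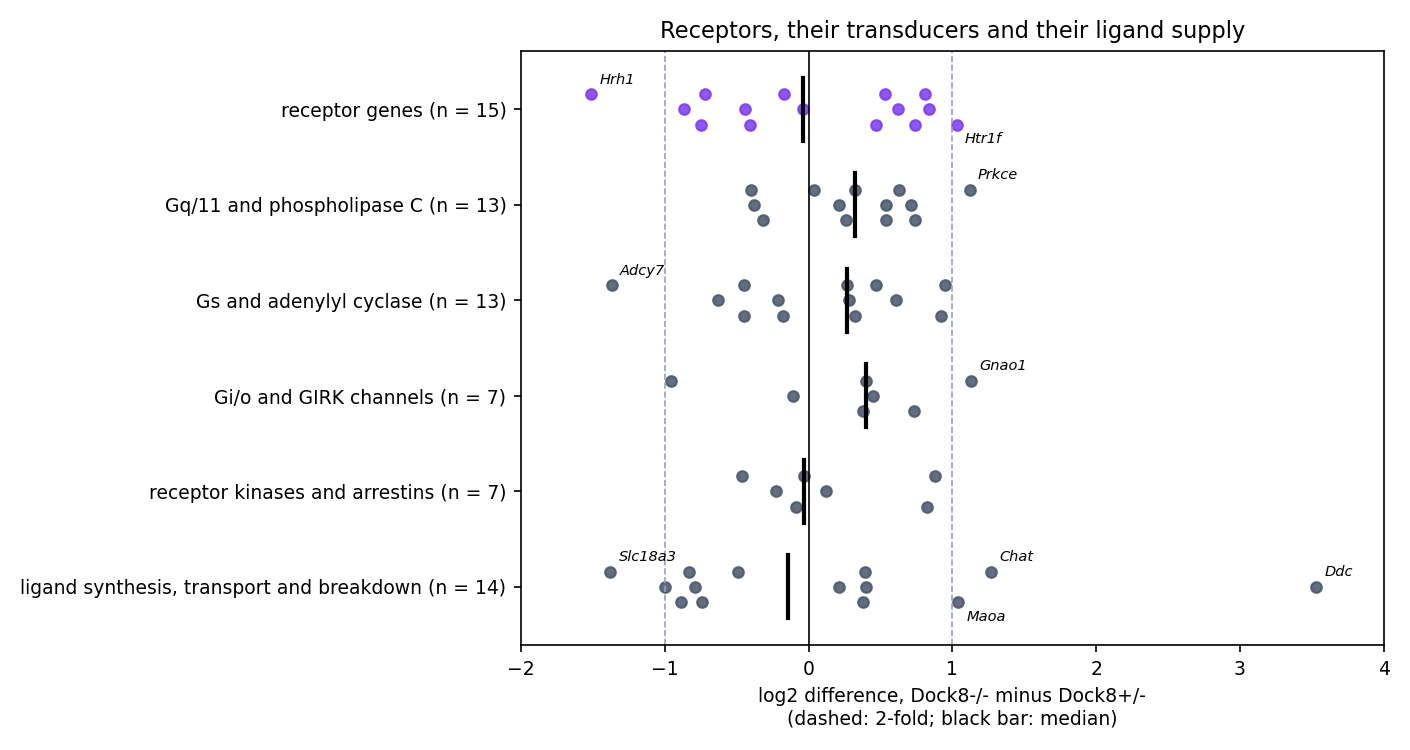
Scaled log2 difference, Dock8-/- minus Dock8+/-, of the measured receptor genes and of the genes of 5 signalling and ligand lists, with 1 point a gene, a black bar at each median and dashed lines at 2-fold. The list medians lie between -0.14 and 0.40, and Ddc at 3.53 stands farthest from 0.

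The 11 receptors on neither array had brightest probes, by the mean of both arrays, of 3.25 to 13.0 in Dock8-/- and 3.54 to 16 in Dock8+/-. Another Adra1d probe read 19.7 in Dock8+/-, also not well above background, and 3.86 in Dock8-/-. Such readings do not show that a receptor is absent, only that its probe was not well above background at this signal. Across the whole list, 19 of the 55 probes read under 5 on both arrays, a threshold chosen after the values were seen. Their scaled differences fell between 0.90 and 1.08, which follows from scaling equal floors by unequal percentiles, and none of them counts as a difference between genotypes.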

How the data were processed

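The authors deposited scanner files whose processed intensity is detrended, on a linear scale, per the file headers. The headers name Agilent Feature Extraction 10.7.1.1 and the submitters' processing notes 9.5.1.1. Labelling used a low-input Cy3 kit, per the labels' protocols. The deposited flags for spots well above background were used as given. The deposited value table was found to be quantile normalised (98.9% of sorted values equal with no tolerance, median 27.9 in each column, log2 correlation with the scanner files 0.9993 in Dock8-/- and 0.9997 in Dock8+/-). Scale and direction follow from that comparison, no centring was seen, and the table served as an alternative.

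Log2 intensity was averaged over a probe's spots, non-uniform spots left out (1 in Dock8-/-, 3 in Dock8+/-), and each array's 75th percentile over 56605 non-control probes subtracted. No non-control spot was saturated (0 on each array). Member probes were found by the file's gene name. Of all probes, 32994 were named by accession and 10224 by symbol through RefSeq GRCm38.p6, used for names only, 520 by synonym, and 12867 kept the file's name. A gene took its brightest probe, by the mean of both arrays, without 4 or more GA or GAA units in a row. It counted as measured where both arrays had that probe well above background. Probes with 10 spots had a root mean square SD of 0.0463 in Dock8-/- and 0.0438 in Dock8+/- (log2). All receptors are accounted for. Named signalling genes have the largest absolute differences of their list (up to 4), cell type markers likewise (up to 3) with those on neither array; Plin1, Adipoq and Ucp1 were added after their values were seen. Sequences were to be printed for receptors at least 2-fold apart. The members and lists were chosen with earlier results of these data known. Python 3.11.15, R 4.3.3 and limma 3.58.1 (normexp offset 50, loess span 0.3) were used, and the steps were tested on simulated data. Only 1 array a group limits the precision.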

Additional observations from a re-analysis of the deposited data

How the results depend on the processing

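No paired analysis was possible because each genotype has 1 array, and no replicate could be left out. The count of receptors at least 2-fold higher in Dock8-/- was 1, and 0 under quantile normalisation, loess, no scaling, spike-in scaling, normexp background correction, the authors' value table and a 3-fold limit. It was 2 with no filter on dim probes and with the other detection flag, and 5 at 1.5-fold. The count at least 2-fold lower was 1, and 8 with no scaling, 14 with spike-in scaling, 0 with normexp and at 3-fold, 5 with probes read on at least 1 array and with no filter, 3 with the other flag and 4 at 1.5-fold. The median of -0.04 moved to -1.10 with no scaling, -1.89 with spike-in scaling, 0.33 with normexp, 0.22 with the mean of a gene's probes, -0.34 with probes read on at least 1 array and -0.13 with the other flag. The number of receptors compared was 15, and 24, 35 and 25 under those 3 filters (at least 1 array, none, other flag). Htr1f, at 1.03, became -0.03 with no scaling and -0.82 with spike-in scaling, and stayed higher at 0.76 with loess, 0.83 with normexp, 0.87 with quantile normalisation and 0.88 in the authors' value table. Hrh1, at -1.51, was -0.60 with normexp and -1.68 with loess. Chrm1 turned to 0.33 with normexp, and Htr4 to 0.22 with the mean of its probes. Scaling by the 75th percentile or the median of detected probes, and the handling of repeat probes, kept the sign of all 15. Among all measured genes, 1623 were at least 2-fold higher and 1315 lower. These counts were 162 and 9731 with no scaling, 23 and 16293 with spike-in scaling, 634 and 866 with normexp, 1223 and 1536 with loess, 1375 and 1390 with quantile normalisation, 1390 and 1408 in the value table, 2137 and 2586 with at least 1 array, 5349 and 2766 with no filter, 3323 and 2074 with the other flag, 3818 and 3157 at 1.5-fold and 419 and 425 at 3-fold. The cause of these shifts was not tested, beyond the number of probes each filter admits. Dim signal limits the receptors read on 1 array to bounds.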

Other observations

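Chat and Slc18a3, the synthetic enzyme and the vesicle carrier of acetylcholine, share a locus, and Slc18a3 lies within Chat in the RefSeq table. On these arrays they ran in opposite directions. Chat was 2.41-fold higher after scaling and Slc18a3 2.61-fold lower, while the unscaled intensities were 213.5 in Dock8-/- and 185.1 in Dock8+/- for Chat and 207.2 in Dock8-/- and 1126.9 in Dock8+/- for Slc18a3. Slc18a3 has 1 probe, and no other Chat probe was well above background. The pair was singled out after its values were seen, with 1 array a genotype. Th, the enzyme that starts dopamine synthesis, was lower by both of its probes, at -0.79 and -2.06, whereas Ddc, the next enzyme of that pathway, was higher.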
